A study of Mus musculus with 19 samples.

Results

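Collagens are the structural proteins of the extracellular matrix. Each is a trimer of chains wound into a triple helix, and every chain is the product of its own Col gene. Fibrillar collagens (types I, II, III, V, XI, XXIV and XXVII) form the tensile fibres of the airway wall, vessels and interstitium, and in the lung types I and III carry most of the load. Type IV collagens form the sheet of the basement membrane between alveolar epithelium and capillary endothelium, as trimers of the alpha 1 and alpha 2 chains, of the alpha 3, alpha 4 and alpha 5 chains, or of the alpha 5 and alpha 6 chains. The remaining types include the beaded filaments of type VI, the fibril-associated collagens, the multiplexins (types XV and XVIII), which sit at basement membranes, and collagens that span the cell membrane.

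Collagen transcripts were taken as the array probes whose RefSeq accession belonged to a gene symbol made of Col, a number, the letter a and a number. This gave 63 probes of 55681 on the array, for 43 of the 44 such genes in the RefSeq gene table. Col12a1 had no probe matched in this way. The 63 probes fell into 11 fibrillar genes with 11 probes, 6 type IV genes with 9 probes and 26 other genes with 43 probes.

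The probes were measured in the lungs of 18 male MutaMouse animals aged about 12 weeks. MutaMouse is a transgenic strain (on a BALB/c and DBA/2 background) that carries a bacterial reporter gene for mutation assays, and all groups shared it. Mice were gavaged every day for 28 days with olive oil alone (D0, 5 mice) or with a mixture of 8 polycyclic aromatic hydrocarbons (PAHs) in olive oil at 15 (D1, 4 mice), 30 (D2, 5 mice) or 60 (D3, 4 mice) mg benzo[a]pyrene (BaP) equivalents per kg body weight per day, and lungs were removed 72 h after the last dose. PAHs are combustion products that bind the aryl hydrocarbon receptor (AHR). The study asked how the lung transcriptome responded to such mixtures. Each array held lung RNA in the red channel and, in the green channel, a reference RNA pooled from 11 mouse cell lines. Values below are log2 ratios of lung over reference for 1 probe, so levels of different probes are not set against each other. Differences between groups are log2 changes from D0, with their standard error (SE) from limma and a p adjusted by Benjamini-Hochberg over all 31120 probes tested. A probe was called when the adjusted p was at most 0.05 and the change was at least 1.5-fold.

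The 19 arrays lay on 3 slides, each of which held all 4 groups. Within a slide the array column ran in the order of dose, and the effects of column and dose cannot be told apart. The mouse labelled 23 in D2 has a number that falls among those of D1, and the sizes that the methods give for D1 and D2 differ from those in the labels, as they would with that mouse in D1. The labels were followed here. Counted in D1 instead, it left the same probes called at D1, D2 and D3, with Col4a4 at −0.67 and −0.76 at D1 and Col5a3 at −0.54 at D2, and 1 Col18a1 probe in place of 2 called in the trend. The values of mouse 35 (D3) are means over its pair of arrays. RNA came from random sections of the frozen lung lobe, with its cell types mixed, so fewer cells of a type and less RNA per cell cannot be told apart in any value given here.

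Detection was read from the scanner software's mark for a red signal well above background. Of the 63 probes, 34 carried the mark in all 18 mice, 16 in some mice and 13 in none. All 9 type IV probes carried it in every mouse. Of the 11 fibrillar probes, 7 carried it in all mice, 3 in some and 1 in none, and of the 43 other probes the counts were 18, 13 and 12. A looser mark of the software, for a signal positive and significantly different from background, was given to 46 of the 63 probes in all mice and was missing in all mice for 2.

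**Figure D1:**
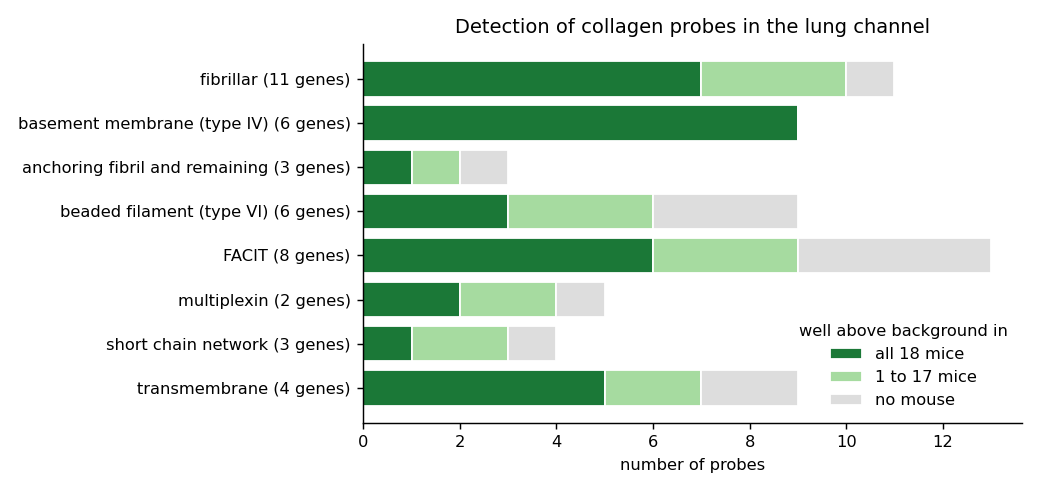
Number of collagen probes (x axis) in each structural class (rows, with the number of genes) whose red signal was well above background in all 18 mice, in 1 to 17 mice or in no mouse. All 9 type IV probes lie in the first class, while 13 of the 63 probes, none of them of type IV, were not well above background in any mouse.

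The collagens that were not well above background in any mouse by any of their probes were Col24a1, Col28a1, Col19a1, Col22a1, Col9a3 and Col10a1. Among the fibrillar collagens known from cartilage, Col11a1 was well above background in 1 mouse, Col11a2 in 6 and Col2a1, the chain of cartilage fibrils, in 11. Col9a1 and Col9a2, which coat cartilage fibrils, were so in 7 and 8 mice. Of the 9 cartilage markers looked for, Chad was well above background in all 18 mice, Acan in 12, Hapln1 in 6, Comp in 3 and Cnmd in 2, while Matn1, Matn3, Snorc and Sox9 were so in none. Markers of alveolar, airway, endothelial and fibroblast cells of the lung were well above background in all 18 mice by at least 1 probe each.

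The test was limited to probes marked well above background in red in 4 or more mice of any group, and 44 collagen probes of 33 genes met this (8 fibrillar, 9 type IV and 27 other probes). Most collagen transcripts differed little from D0 at any dose. The median log2 change over the 44 probes was −0.04 at D1, −0.01 at D2 and −0.01 at D3, against medians of 0.007, −0.004 and −0.002 over all probes tested. The fibrillar median was −0.11, 0.05 and −0.01 at the 3 doses in order of dose. The type IV median was −0.15, −0.13 and −0.10, with 7, 8 and 7 of the 9 probes lower than D0. These probes stand for 6 genes, with repeated probes of Col4a4 and Col4a6. Of all 31120 probes tested, 15029, 15905 and 15683 were lower than D0 at the same doses. The median of the other collagens was 0.03 at each dose. At D3, the 95% interval of the change lay within 1.5-fold in both directions for 34 of the 44 probes, namely 6 of the 8 fibrillar, 5 of the 9 type IV and 23 of the 27 other probes.

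At D1, 2 collagen probes were called, both lower and both of Col4a4, where 1.05% of all probes tested were called and 0.463% were called lower. At D2, 0 of 44 were called by limma (0.623% of all probes), while 10 had an unadjusted p under 0.05 (14.7% of all probes). At D3, 4 were called (2.42% of all probes), with the same Col4a4 probes lower (1.22% of all probes) and both probes of Col18a1 higher (1.2%). By the adjusted p alone, 4 collagen probes passed at D1 (4.71% of all probes), 1 at D2 (2.08%) and 7 at D3 (12.3%), of which 3 were higher (5.99%) and 4 lower (6.34%). Groups that did not overlap with D0 were found for 3 collagen probes at D1 (8.91% of all probes), 1 at D2 (4.11%) and 7 at D3 (14.6%). At D3 the 7 probes are 15.9% of the 44, a share near that of the whole array by either measure. With median centring in place of loess, limma called 0 collagen probes at each dose, although the changes of the called probes stayed past 1.5-fold. The Col18a1 probes were then at 0.79 and 0.81 at D3 (limma adjusted p = 0.554 and 0.416) and the Col4a4 probes at −0.74 and −0.60 (adjusted p = 0.458 and 0.554). With the scanner software's processed signals 5 collagen probes were called at D3, namely both of Col18a1, 1 of Col4a4, Col5a3 and Col15a1. Between doses, limma called 0 collagen probes for D2 against D1 (0% of all probes), for D3 against D2 (0.106%) and for D3 against D1 (0.145%). An unadjusted p under 0.05 was found for 5, 6 and 5 collagen probes in these comparisons, and for 9.79%, 11.7% and 7.66% of all probes.

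**Figure D2:**
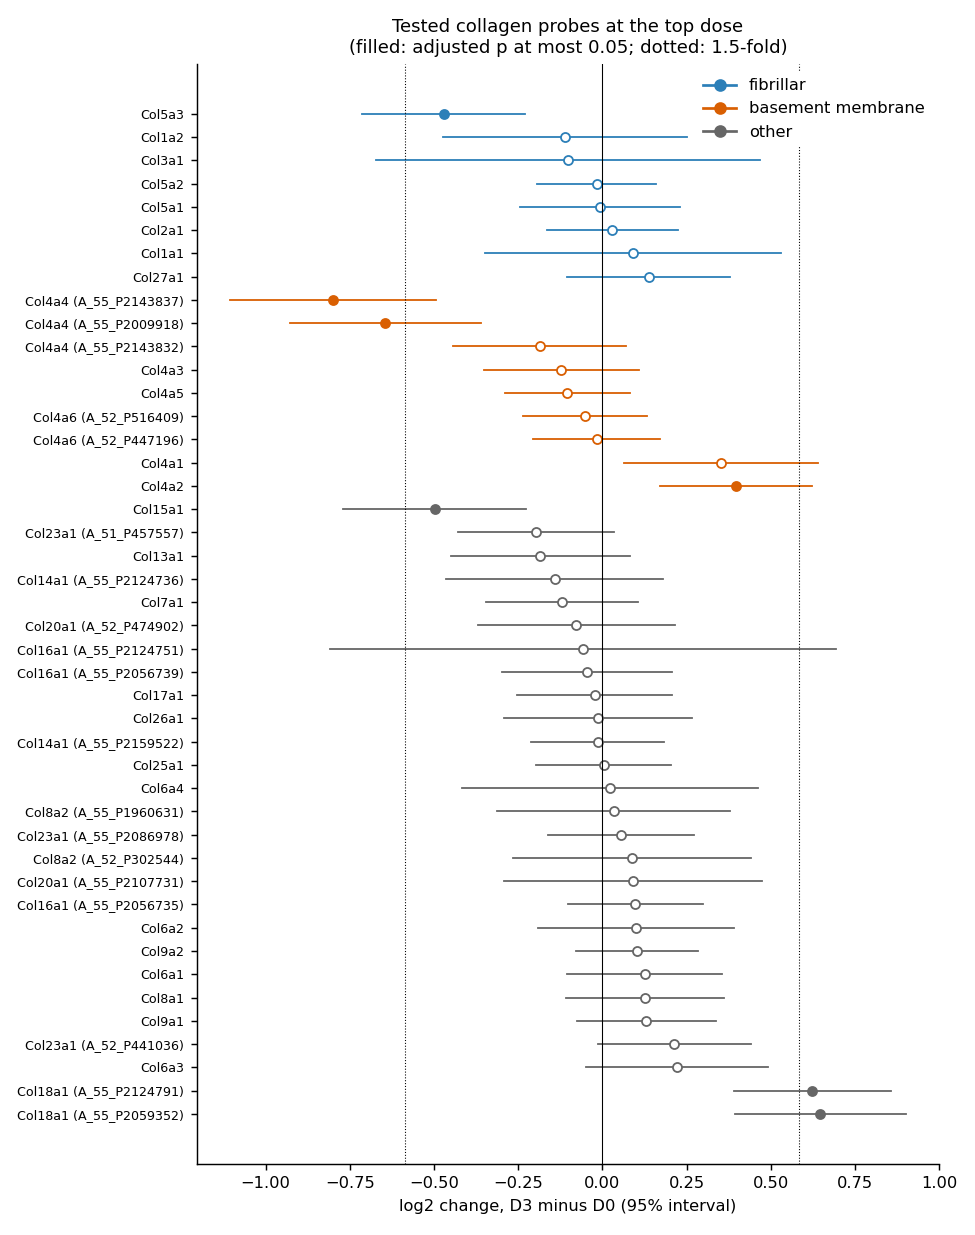
Log2 change from D0 to D3 (x axis) with its 95% interval for each of the 44 tested collagen probes, by class (colour). Filled points have an adjusted p of at most 0.05 and dotted lines mark 1.5-fold; both Col18a1 probes lie past the line on the right and 2 of the 3 Col4a4 probes past it on the left, while Col1a1, Col1a2 and Col3a1 span 0.

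Type XVIII collagen is a multiplexin of vascular and epithelial basement membranes whose C-terminal fragment, endostatin, is known to inhibit the growth of vessels. Its gene, Col18a1 (NM_001109991), had 2 probes, and the RefSeq promoter table (GRCm38.p6) gave it 2 start sites. The 250 bases before the outer start, which no annotated gene overlaps, are shown because this is the collagen gene that was called higher. Capitals mark GC boxes, the 6-letter GGGCGG or its reverse complement CCGCCC, which bind factors of the Sp family.

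Col18a1, outer start, chr10:77166531-77166780, minus strand: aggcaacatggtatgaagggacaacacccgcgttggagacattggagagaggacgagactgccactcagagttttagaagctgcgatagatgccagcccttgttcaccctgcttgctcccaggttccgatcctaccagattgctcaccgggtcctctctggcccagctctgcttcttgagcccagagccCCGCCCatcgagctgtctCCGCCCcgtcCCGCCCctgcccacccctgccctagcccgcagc

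The window held 3 GC boxes and no match to GCGTG, the core of the element that AHR is known to bind, on either strand. The inner Col18a1 window held neither motif. Which start was used in these lungs was not tested.

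For the Col18a1 probe A_55_P2124791, the 5 mice of D0 lay at −0.47, −0.53, −0.69, −0.61 and −0.69. The mice of D1 lay at −0.29, −0.52, −0.41 and −0.05 and those of D2 at −0.28, −0.39, −0.10, −0.50 and −0.24. The mice of D3 lay at 0.13, −0.14, −0.19 and 0.30. All mice of D3 were above all mice of D0, and D1 and D2 lay between them with 1 or more mice inside the range of D0. The change was 0.28 at D1, 0.30 at D2 and 0.62 at D3 (SE 0.11 at D3; 1.54-fold; limma adjusted p = 0.00137), and neither of the lower doses passed the test (adjusted p = 0.156 and 0.158).

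The probe A_55_P2059352 gave nearly the same sizes. Its mice lay at −0.77, −0.81, −1.11, −0.94 and −1.34 in D0 and at −0.25, −0.51, −0.37 and −0.27 in D3, again without overlap. The change was 0.28 at D1, 0.37 at D2 and 0.65 at D3 (SE 0.12; 1.57-fold; limma adjusted p = 0.00194). Along a straight line over dose, the fitted change from D0 to D3 was 0.58 for the first probe (limma adjusted p = 0.00255) and 0.62 for the second (0.00269), and these were the 2 collagen probes called in the trend, where 1.52% of all probes were called and 0.948% were called higher. By the adjusted p alone, 3 collagen probes passed in the trend (6.53% of all probes), the additional one being Col5a3, which was lower with dose. The first Col18a1 probe only just met the fold threshold of the trend, and both trend calls were lost in the red channel alone and without mouse 5 of D0. The D3 change was positive on each of the 3 slides, at 0.49, 0.70 and 1.01 for the first probe and 0.41, 0.72 and 1.05 for the second, the slide with the highest values holding 1 array of each group. Its D3 array was the repeat of mouse 35, which was also on the second slide, so the slides do not hold separate D3 mice. Both probes were close to the 1.5-fold threshold, and the first fell short of it without mouse 35 of D3 (0.53) and the second without mouse 5 of D0 (0.56).

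**Figure D3:**
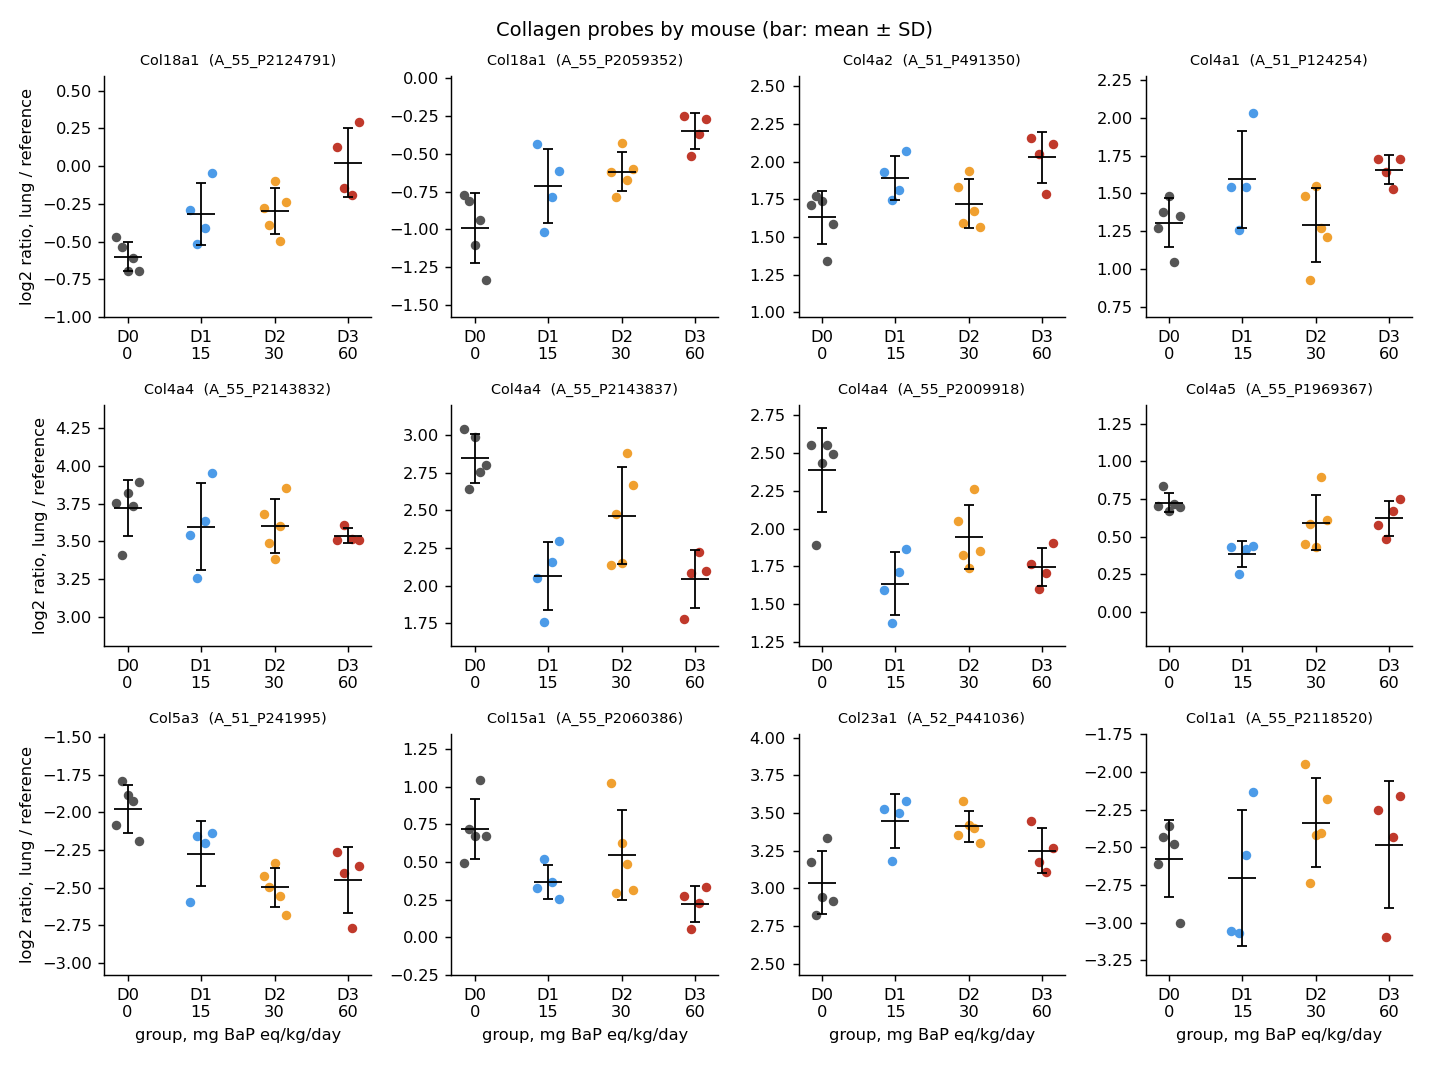
Log2 ratio of lung over reference RNA (y axis, own scale in each panel) by dose group (x axis, mg BaP equivalents per kg per day) for 12 collagen probes, with each point a mouse and bars the mean ± SD. Both Col18a1 probes step up to D3 and 2 of the 3 Col4a4 probes are lower at D1 and D3 than at D0, with D2 between, while the brightest Col4a4 probe and Col1a1 overlap across all groups.

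Col15a1 (NM_009928), the other multiplexin, showed the opposite direction at D3. Its tested probe, A_55_P2060386, lay at 0.50, 0.72, 0.67, 1.04 and 0.68 in D0, at 0.33, 0.52, 0.37 and 0.25 in D1, at 1.02, 0.29, 0.63, 0.49 and 0.31 in D2 and at 0.27, 0.06, 0.23 and 0.34 in D3. No mouse of D3 reached the range of D0, while D1 and D2 overlapped it. The changes at D1 and D2 were −0.35 and −0.17 and did not pass (limma adjusted p = 0.125 and 0.566). The D3 change was −0.50 (SE 0.13; 1.41-fold lower; limma adjusted p = 0.0163), which passed the adjusted p but not the fold, and the adjusted p was 0.0567 without mouse 32 of D3. With the processed signals the change was −2.12 (limma adjusted p = 0.0048), past both thresholds, so its size depended on which signals were used. This probe was dim, since 17 of 18 mice were well above background in red and none in the green reference channel. The other 2 Col15a1 probes were well above background in 1 mouse and in none, and were not tested.

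Type IV collagen held both directions. Col4a1 and Col4a2 encode the chains present in nearly all basement membranes. Col4a2 (A_51_P491350) lay at 1.71, 1.77, 1.74, 1.34 and 1.58 in D0 and at 2.16, 2.05, 1.78 and 2.12 in D3, with no overlap. Its D3 change was 0.40 (SE 0.11; 1.32-fold; limma adjusted p = 0.0204), past the adjusted p but short of 1.5-fold, and the adjusted p rose to 0.0699, 0.0537 and 0.0666 without mouse 31 of D3, mouse 4 of D0 and mouse 35 of D3. Col4a1 (A_51_P124254) lay at 1.27, 1.38, 1.48, 1.05 and 1.35 in D0 and at 1.73, 1.64, 1.53 and 1.73 in D3. These groups did not overlap either, with a D3 change of 0.35 (SE 0.14) that did not pass (limma adjusted p = 0.105). At D1 and D2 the changes were 0.26 and 0.09 for Col4a2 and 0.29 and −0.01 for Col4a1, none passing, so the middle dose lay nearer to D0 than either other dose.

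Col4a4 (NM_007735) encodes the alpha 4 chain, which joins alpha 3 and alpha 5 in the mature alveolar and glomerular basement membranes. It had 3 probes, whose values were unlike. For A_55_P2143837, the mice of D0 lay at 3.04, 2.64, 2.99, 2.75 and 2.80. Those of D1 lay at 2.05, 1.76, 2.15 and 2.29, and those of D3 at 1.78, 2.08, 2.22 and 2.10. Both groups were entirely below D0, while D2, at 2.14, 2.48, 2.15, 2.88 and 2.67, overlapped it. The change was −0.78 at D1 (SE 0.15; 1.72-fold lower; limma adjusted p = 0.00453), −0.38 at D2 (adjusted p = 0.173) and −0.80 at D3 (SE 0.15; 1.74-fold lower; adjusted p = 0.00162).

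For A_55_P2009918, the mice of D0 lay at 2.56, 1.89, 2.44, 2.56 and 2.49, those of D1 at 1.59, 1.37, 1.71 and 1.86 and those of D3 at 1.76, 1.60, 1.71 and 1.90. D1 was entirely below D0, and 1 mouse of D3 reached the lowest of D0, mouse 2. The change was −0.75 at D1 (SE 0.14; limma adjusted p = 0.0037), −0.44 at D2 (adjusted p = 0.0795) and −0.64 at D3 (SE 0.14; adjusted p = 0.00455). The reference channel was well above background in 5 mice for the first of these probes and in none for the second, so the denominator of their ratios was near background. In the red channel alone the D3 changes were −0.82 and −0.69 (limma adjusted p = 0.0022 and 0.00627). On the 3 slides the D3 change was −0.91, −0.68 and −0.77 for the first and −0.54, −0.65 and −0.68 for the second, with mouse 35 on both the second and the third slide.

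The Col4a4 probe with the brightest red signal, A_55_P2143832, did not pass at any dose. It lay at 3.76, 3.41, 3.82, 3.73 and 3.89 in D0 and at 3.51, 3.61, 3.52 and 3.51 in D3, inside the range of D0. Its D3 change was −0.19 (95% interval −0.44 to 0.07; limma adjusted p = 0.361). All 3 probes carry the same accession, and the part of the transcript each reads was not looked up. Neither of the called Col4a4 probes passed the test between D1 and D2 (D2 minus D1 was 0.40 and 0.31; limma adjusted p = 0.376 and 0.47). With the scanner software's processed signals, A_55_P2009918 was −0.84 at D1 (limma adjusted p = 0.065) and −0.64 at D3 (adjusted p = 0.106) and was not called.

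Col4a3 (A_51_P296535), whose chain pairs with that of Col4a4, had changes of −0.15, −0.28 and −0.12 at D1, D2 and D3 (limma adjusted p = 0.498, 0.189 and 0.53). Col4a5 (A_55_P1969367), which contributes to both of the minor type IV trimers, lay at 0.71, 0.83, 0.67, 0.72 and 0.70 in D0 and at 0.43, 0.25, 0.42 and 0.44 in D1, without overlap. Its D1 change was −0.34 (SE 0.09; limma adjusted p = 0.0321), short of 1.5-fold, and it was −0.10 at D3 (adjusted p = 0.498). Leaving out any of the 4 mice of D1, or mice 1 to 4 of D0, raised the D1 adjusted p above 0.05, to between 0.0538 and 0.098. With median centring the D1 change was −0.06 (adjusted p = 0.942). Col4a6 (A_52_P516409) had changes of −0.16, −0.19 and −0.05 and did not pass.

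In the fibrillar class, the chains of types I and III overlapped between D0 and every dose. Col1a1 (A_55_P2118520) lay at −2.61, −2.43, −2.36, −2.48 and −3.00 in D0 and at −2.25, −3.09, −2.43 and −2.16 in D3. The D3 change was 0.09, with a 95% interval from −0.35 to 0.53 (limma adjusted p = 0.831). Col1a2 (A_51_P182303), the other chain of type I, had a change of −0.11 at D3 (−0.47 to 0.25; adjusted p = 0.738). Col3a1 (A_51_P515605), the chain of type III, had one of −0.10 (−0.67 to 0.47; adjusted p = 0.859). The Col3a1 interval reached past 1.5-fold below D0, and the mice within D3 alone ranged from −1.61 to −0.35. On the slide with 1 array per group, D3 was above D0 by 0.86 for Col1a1, 0.83 for Col1a2 and 1.12 for Col3a1, where D0 was mouse 5, the lowest of its group for all 3 chains. On the other slides the differences were −0.15 and 0.11 for Col1a1, −0.34 and −0.20 for Col1a2 and −0.34 and −0.14 for Col3a1.

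Type V collagen nucleates the type I fibrils. Col5a1 (A_51_P414637) and Col5a2 (A_55_P2104894), the chains of its common trimer, had changes of −0.01 (95% interval −0.25 to 0.23) and −0.02 (−0.19 to 0.16) at D3. Col5a3 (A_51_P241995, NM_016919), the chain of a rarer trimer, was the fibrillar transcript that passed the adjusted p. It lay at −2.09, −1.80, −1.89, −1.92 and −2.19 in D0, at −2.60, −2.16, −2.20 and −2.14 in D1, at −2.42, −2.50, −2.34, −2.55 and −2.68 in D2 and at −2.27, −2.41, −2.77 and −2.36 in D3. D2 and D3 were entirely below D0, and D1 overlapped it. The change was −0.30 at D1 (limma adjusted p = 0.152), −0.52 at D2 (SE 0.11; 1.44-fold lower; adjusted p = 0.0153) and −0.47 at D3 (SE 0.12; 1.39-fold lower; adjusted p = 0.0118). In the red channel alone the changes were −0.46 at D2 (limma adjusted p = 0.0592) and −0.40 at D3 (0.0572), and with the processed signals they were −0.79 (0.0338) and −0.72 (0.0245), past both thresholds. With median centring they were −0.34 (0.928) and −0.36 (0.849). On the 3 slides the D3 change was −0.39, −0.71 and −0.06, the last on the slide with 1 array per group, where D0 was mouse 5, the lowest of D0 for this probe.

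Promoters of the collagen genes were searched because AHR is the receptor for these compounds. The 250 bases before the start were given for 35 of the collagen genes in 38 windows. GCGTG or its reverse complement CACGC stood in 8 of the 38 windows (21.1%), against 28.2% of 32851 windows of all genes. The GC box stood in 22 (57.9% against 32.7%), the TATA box TATAAA in 5 (13.2% against 12.4%) and CCAAT in 13 (34.2% against 33.8%), each on either strand. Col5a3 held 2 of the GCGTG matches. Col4a1 and Col4a2, which are read in opposite directions from starts that lie close together, held 1 each. The annotated Col4a1 gene overlaps both of their windows, and Col4a2 overlaps that of Col4a1. The matches of these 3 genes are shown with 12 bases to either side, in capitals for GCGTG and read along the strand of the gene (GRCm38.p6).

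Col5a3, chr9:20815230-20815258, minus strand: tagggctagtggGCGTGgcccatcgtctc

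Col5a3, chr9:20815164-20815192, minus strand: cagccaatcagcGCGTGgtgcacacttcg

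Col4a1, chr8:11312981-11313009, minus strand: ctctcggccccgGCGTGccttgctggtgc

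Col4a2, chr8:11312688-11312716, plus strand: cggagggcccggGCGTGagccctgctcac

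At D3, Col5a3 was lower and Col4a2 higher by the adjusted p, and Col4a1 did not pass. The other genes with a match were Col13a1 (D3 change −0.18), Col16a1 (−0.05 by its brightest probe) and Col6a2 (0.10), none of which passed, and Col11a2 and Col6a6, which were too dim to be tested. The windows of Col4a4 and of Col15a1 held no GCGTG. A match in letters says nothing of binding in these lungs.

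Among the remaining collagens, the tested chains of type VI, the beaded filament around cells, did not pass at any dose. Col6a1, Col6a2 and Col6a3 had changes of 0.13, 0.10 and 0.22 at D3 (95% intervals −0.10 to 0.36, −0.19 to 0.39 and −0.05 to 0.49). At D2 the change was 0.29 for Col6a3 (0.03 to 0.54; limma adjusted p = 0.265) and 0.41 for the tested probe of Col6a4 (adjusted p = 0.349). Col14a1, which binds fibril surfaces, had a change of −0.14 at D3 by its brightest probe (−0.46 to 0.18), and Col8a1, a short-chain collagen of vessel walls, one of 0.13 (−0.11 to 0.36). The membrane-spanning Col13a1 and Col17a1, the latter part of epithelial hemidesmosomes, had changes of −0.18 (−0.45 to 0.08) and −0.02 (−0.25 to 0.21).

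Col23a1, another membrane-spanning collagen, had 3 tested probes with unlike values. The brightest, A_52_P441036, lay at 3.17, 2.82, 2.94, 3.33 and 2.92 in D0 and at 3.53, 3.18, 3.50 and 3.58 in D1. The groups overlapped, and the D1 change was 0.41 (SE 0.11; 1.33-fold; limma adjusted p = 0.0367), which passed the adjusted p alone and was 0.21 at D3 (adjusted p = 0.224). The values of the other 2 probes were 0.19 and −0.08 at D1. Without mouse 25 of D1 the adjusted p of the first was 0.104, and it was above 0.05 without 5 other single mice as well.

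The widest spread between mice was that of a Col16a1 probe, A_55_P2124751. Its ratio ran from −3.87 to −1.99 over the 18 mice, with values from −3.64 to −1.99 within D3. Its D1 change of −0.86 (SE 0.36; limma adjusted p = 0.185) was the largest of any collagen probe at that dose and did not pass. The brighter Col16a1 probe A_55_P2056739 ran from −1.80 to −1.18. Over the 44 tested probes the median range between the lowest and the highest mouse was 0.727, and the median SE of a D3 change was 0.116.

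By the F test over the 3 doses, 6 collagen probes of 4 genes passed the adjusted p of 0.05 (7.75% of all probes). They were the 2 probes of Col18a1, the same 2 of Col4a4, Col5a3 and the brightest probe of Col23a1.

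Chains of 1 trimer, and the chains of types I and III, which are laid down in the same fibres, were set against each other mouse by mouse, as deviations from the group mean, so that dose did not enter. The 11 pairs were chosen after values of single mice had been seen, and the correlations are given as descriptions with no test. Col1a1 and Col3a1 moved together (Pearson r = 0.861, Spearman rho = 0.833 over 18 mice, and r = 0.828 without the 2 mice farthest from the median of the first chain). Col4a1 and Col4a2 did so too (r = 0.819, rho = 0.905, and 0.839 without 2 mice), and within the slides with 8 and 7 mice their r was 0.982 and 0.961, against 0.814 and 0.393 for Col1a1 and Col3a1. Col1a1 and Col1a2 had an r of 0.644 (rho = 0.672, 0.489 without 2 mice), Col1a2 and Col3a1 0.688 (rho = 0.655, 0.603 without 2 mice), and Col6a1 and Col6a2 0.648 (rho = 0.507, 0.57 without 2 mice). For Col6a3 the r was 0.604 with Col6a2 (rho = 0.55, 0.434 without 2 mice) and 0.515 with Col6a1 (rho = 0.354, 0.307 without 2 mice).

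Other chains that share a trimer had lower correlations. The r was 0.102 for Col5a1 and Col5a2 (rho = −0.003), 0.05 for Col4a5 and Col4a6 (rho = 0.061) and −0.16 for Col8a1 and Col8a2 (rho = −0.11). After the slide means were taken out as well, these were 0.382, −0.16 and 0.402, so the values for types V and VIII depended on the slide, while Col1a1 and Col3a1 stood at 0.809 and Col4a1 and Col4a2 at 0.93. For Col4a3 and Col4a4 it was 0.512 (rho = 0.366) and fell to 0.125 without 2 mice, so it rested on them. The common arrays, slides and labelling of the 18 mice are shared by every pair.

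**Figure D4:**
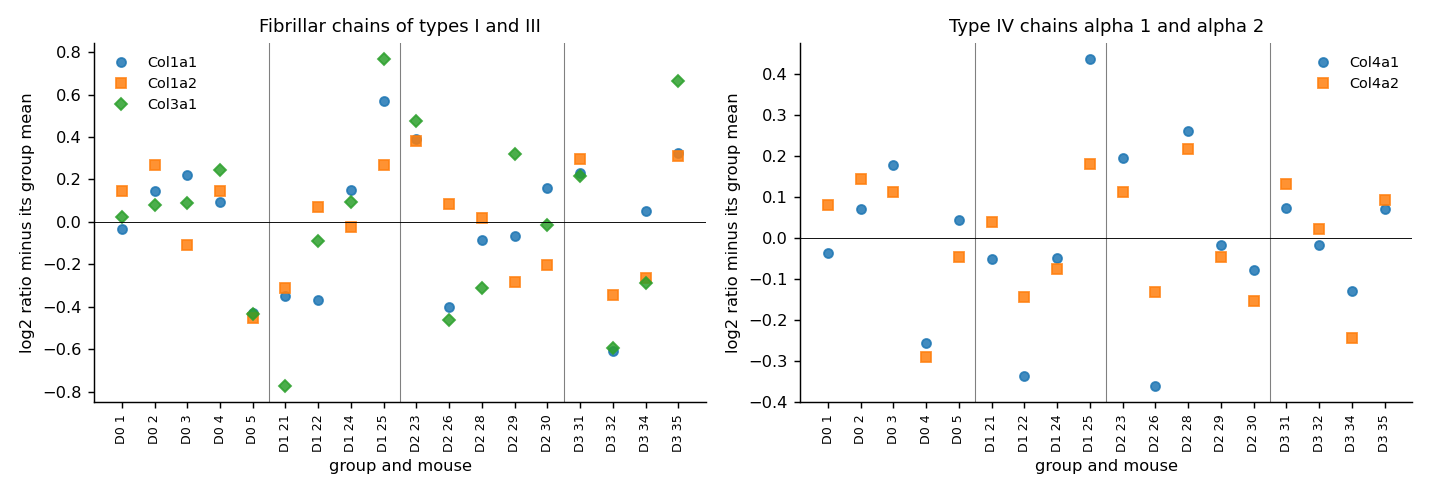
Deviation of the log2 ratio from its group mean (y axis) for each of the 18 mice (x axis, group and mouse number, vertical lines between groups), for Col1a1, Col1a2 and Col3a1 on the left and Col4a1 and Col4a2 on the right. The markers of a mouse tend to lie on the same side of 0, with mouse 5 of D0, mouse 21 of D1 and mouse 32 of D3 low for all 3 fibrillar chains and mouse 35 of D3 high.

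Genes that make, bind or break down collagen were taken from 7 lists. Their probes were fitted with the collagens, and 10 of the 125 tested probes reported here were called at D3 (2.42% of all probes), 8 higher (1.2%) and 2 lower (1.22%). Of the 24 probes for folding, modification and secretion, 0 were called at D3 by limma (6 with an unadjusted p under 0.05, against 26.2% of all probes), and P3h3 (0.30, adjusted p = 0.0472), a prolyl 3-hydroxylase, and Plod2 (−0.52, adjusted p = 0.0499), a lysyl hydroxylase that prepares cross-links, passed the adjusted p alone. Serpinh1, the collagen chaperone, had a change of 0.63 at D3 (SE 0.25; adjusted p = 0.107) and ranged from −1.72 to −0.31 within D0. Of the 23 tested probes for processing and cross-linking, 0 were called by limma (4 with an unadjusted p under 0.05) and 1 of 3 Loxl2 probes passed the adjusted p (0.38, 0.0365). The 2 probes of Lox, the lysyl oxidase, had changes of 0.10 and −0.05.

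The breakdown list had the most calls, with 4 of 13 tested probes higher at D3 (1.2% of all probes) and none lower. Mmp8, neutrophil collagenase, lay at 0.51, 0.46, 0.43, 0.70 and 0.58 in D0 and at 1.91, 1.95, 2.49 and 1.77 in D3. D1, at 1.21 to 1.90, and D2, at 1.20 to 1.94, were also entirely above D0. The changes were 0.98, 0.97 and 1.49 (SE 0.16 at D3; limma adjusted p = 0.00187, 0.00111 and 6.68e-06), although the reference channel was not well above background for this probe in any mouse. Mmp2, a gelatinase that also cuts type IV collagen, lay at −0.03, −0.07, 0.33, −0.24 and −0.61 in D0 and, without overlap, at 0.87, 0.45, 0.67 and 0.97 in D3, a change of 0.86 (SE 0.15; limma adjusted p = 0.00137). Mmp9, the other gelatinase, changed by 0.68 (SE 0.18; adjusted p = 0.0179), with mouse 34 of D3 at −0.08 and mouse 35 at −1.34, inside the range of D0. Timp3, an inhibitor of these enzymes bound to the matrix, changed by 0.66 (SE 0.11; adjusted p = 0.00115) and is named after its value was seen. Mmp12, Mmp16 and Mmp1a were not well above background in any mouse.

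Of the 21 basement membrane partner probes, 2 were called higher at D3 (1.2% of all probes) and none lower, and the median change was 0.24, against −0.002 over all probes. Lama1, a laminin chain best known from embryonic basement membranes, lay between 0.95 and 1.54 in the 5 mice of D0. It lay at 2.14 to 2.83 in D1, at 2.06 to 3.07 in D2 and at 2.86, 2.47, 2.36 and 2.95 in D3, so that all dosed mice were above all controls. The changes were 1.16, 1.30 and 1.40 (SE 0.19 at D3; limma adjusted p = 0.00214, 0.000503 and 0.000131), with the reference well above background in 5 mice. Lama3 was called by 1 of 2 probes (0.60, adjusted p = 0.0188, against 0.28 and 0.421), and 1 probe each of Lama2 (0.49), Lamc3 (0.48) and Nid2 (0.35) passed the adjusted p alone.

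Of the 20 tested probes of fibril and elastic fibre partners, 2 were called higher (1.2% of all probes) and 1 lower (1.22%) at D3. Fbln5, which organises elastic fibres, changed by 0.68 (SE 0.11; limma adjusted p = 0.000444), and Postn, which binds type I collagen, by 0.64 (SE 0.11; adjusted p = 0.00126). Dcn, the proteoglycan that coats collagen fibrils, lay at 0.47, 0.17, 0.44, 0.46 and 0.24 in D0 and at −0.55, −0.71, −0.15 and −0.43 in D3. No D3 mouse overlapped D0, and the change was −0.82 (SE 0.22; adjusted p = 0.021). Of the 11 tested receptor probes, 1 was called lower, 1 of the 2 probes of Itga1 (−0.63, adjusted p = 0.0165, against 0.19 and 0.323). Of the genes of TGF-beta signalling, a pathway known to drive collagen synthesis, 13 probes are reported here. At D3, 5 of these were above and 8 below 0 (median −0.08), and 7 had an unadjusted p under 0.05 (26.2% of all probes). The receptor Tgfbr2 passed the adjusted p by 1 of 2 probes (0.41, limma adjusted p = 0.0106, against −0.19 and 0.369), Tgfb1 had a value of 0.27 at D3 (adjusted p = 0.183) and Ccn2 one of 0.18 (adjusted p = 0.529).

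**Figure D5:**
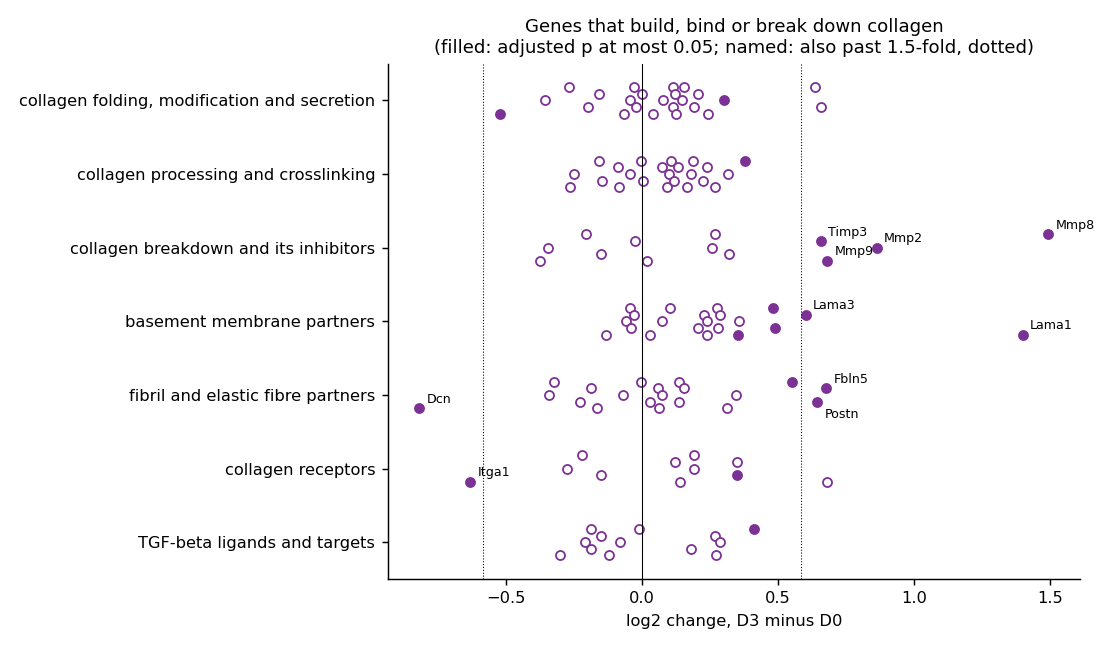
Log2 change from D0 to D3 (x axis) for the probes reported here of 7 lists of genes that build, bind or break down collagen (rows). Filled points have an adjusted p of at most 0.05, dotted lines mark 1.5-fold and probes past both are named; Mmp8 and Lama1 lie farthest to the right, at 1.49 and 1.40, and no probe of the top 2 lists is named.

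Marker lists of the lung's cell types and its neighbours were read in the same mice. The mean log2 ratio of 11 fibroblast marker probes lay from 1.75 to 2.09 in D0 and from 1.73 to 1.94 in D3. Of their D3 changes, 3 were above and 8 below 0 (median −0.035). Mfap4 was called higher (0.65) and Dcn, which both lists hold, was called lower. For 10 endothelial probes the mean lay from 3.60 to 3.96 and from 3.79 to 4.04, with 5 probes above and 5 below 0 (median −0.01). Pecam1 (0.66) and Emcn (0.73) were called higher. For 9 alveolar type 1 probes the mean lay from 3.77 to 4.11 and from 3.57 to 3.89, with 3 probes above and 6 below 0 (median −0.08). Cav1 (−0.64) was called lower. For 9 smooth muscle and pericyte probes the mean lay from 1.00 to 1.70 and from 0.862 to 1.33, with 3 probes above and 6 below 0 (median −0.13). For 7 alveolar type 2 probes the mean lay from 4.93 to 5.48 and from 4.69 to 5.08. For 5 club and ciliated probes it lay from 4.98 to 6.04 and from 4.95 to 5.47. At D3 all 7 type 2 probes had changes below 0 (median −0.36), of which Abca3 (−0.48) and 1 of 2 Sftpb probes (−0.36) passed the adjusted p. All 5 club and ciliated probes were below 0 (median −0.36, none passing). Of all 31120 probes tested, 15683 were below 0 at D3, and 6.34% were lower by the adjusted p alone. For 9 leukocyte probes the mean lay from 0.878 to 1.60 and from 0.664 to 1.09. At D3 their changes were above 0 for 3 probes and below 0 for 6 (median −0.06). By the adjusted p alone, 1 leukocyte probe was higher and 2 were lower (5.99% and 6.34% of all probes). Gzma, a protease of cytotoxic lymphocytes, was called lower at D1, D2 and D3 (−1.60, −2.13 and −3.07; limma adjusted p = 0.0366, 0.00731 and 0.000159). Among markers of neighbouring tissues, the mean of 7 cardiac muscle probes lay from 2.13 to 2.86 in D0 and from 0.52 to 3.70 in D3. Their D3 changes were above 0 for 2 probes and below 0 for 5. The mean of 5 mesothelial probes lay from −1.77 to 0.725 and from −0.73 to 0.488, with all 5 changes above 0 (median 0.16, none passing). That of 4 skeletal muscle probes lay from −0.73 to −0.35 and from −1.02 to −0.31, with 1 change above and 3 below 0. The part of any of these in the collagen values was not tested.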

How the data were processed

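Lung RNA of 18 mice was hybridised to 19 Agilent 2-colour arrays, per the labels with Cy5 (red) on lung RNA and Cy3 (green) on reference RNA, with no dye swap. Scanner output deposited by the authors gives the intensity of each spot as a median over pixels, not normalized (Feature Extraction 11.0.1.1 per the file headers). The deposited series table holds log2 ratios normalized by the authors, with column medians between −0.0348 and −0.0173. Array by array, it correlated at 0.995 to 0.998 with the ratios computed here. The slope of the ratios computed here on the deposited ones was 1.0001 to 1.0005, which shows the same direction and scale. The centring of the deposited table is not given in the sources used here.

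Control spots (3671 of 62976 per array) and spots with an outlier mark (171 to 323) were removed. The median signals, with no background subtracted, were normalized within arrays by loess (span 0.3) and spots of a probe were averaged. Spots well above background made up 54.5% to 64.7% in red and 47.0% to 61.6% in green, and the number of arrays limits the precision. Accessions without version were matched to a RefSeq gene table of GRCm38.p6 (27235 of 28685). limma 3.58.1 in R 4.3.3 fitted all 4 groups in 1 model and was tested on simulated data. The study's methods name MAANOVA, which was not run. The trend used dose as a number, with the 1.5-fold threshold on the fitted change from D0 to D3.

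The members, classes and gene lists were chosen with earlier results of these data known. Each gene was named by its brightest tested probe, together with every called probe and 20 collagens chosen whatever their change, and partners and markers were named when called at D3, up to 3 each way per list. Probes of Col23a1, Col16a1 and the chains of types V and IV past the adjusted p alone, and partners short of a call, were named after their values were seen. Alternatives were median centring, normexp (offset 50), the software's processed signals, the deposited table, the red channel alone, other filters on dim probes, slide as a block, mouse 23 in D1, either array of mouse 35, and leaving out each mouse. Protein sequences were not analysed here. A result for 1 item of the gene lists is not reported here, and counts over the lists leave it out.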

Additional observations from a re-analysis of the deposited data

Results flagged for a closer look

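Within groups of 4 or 5 mice, 5 of 100 groups of the named collagen probes held a mouse far from the others by Dixon's criterion, and chance gives about 1 in 20. The Col4a4 probe A_55_P2143832 was 3.61 in mouse 32 of D3, with the nearest mouse at 3.52. The Col4a4 probe A_55_P2009918 was 1.89 in mouse 2 of D0, with the nearest at 2.44. Col4a5 was 0.25 in mouse 22 of D1, with the nearest at 0.42. Col5a2 was −0.68 in mouse 30 of D2, with the nearest at −0.51. Col5a3 was −2.60 in mouse 21 of D1, with the nearest at −2.20.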

How the results depend on the processing

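With median centring in place of loess, the collagen probes called fell to 0 at D1, 0 at D3, 0 in the trend and 0 in the F test, and the partner genes called at D3 fell from 10 to 2, although the called Col18a1 changes were 0.79 and 0.81 and the Col4a4 changes −0.60 and −0.74 at D3. That setting moved the median change of all probes to 0.17, 0.12 and 0.06 at D1, D2 and D3, and of its 12, 18 and 98 calls 100%, 88.9% and 82.7% were higher, against 56.1%, 69.6% and 49.6% with loess. With the processed signals, 1 collagen probe was called at D1 (Col4a4), 1 at D2 (Col5a3), 5 at D3 (Col15a1 and Col5a3 joining Col18a1 and 1 Col4a4 probe) and 4 in the trend. The trend gave 0 collagen calls in the red channel alone, 1 with mouse 23 counted in D1 and 1 with the first array of mouse 35. Over the 18 fits that each left out a mouse, collagen calls were 2 to 2 at D1, 0 to 0 at D2, 3 to 4 at D3, 0 to 3 in the trend and 4 to 6 in the F test, and partner calls were 8 to 11. The trend had 0 calls without mouse 5 of D0 and 1 without mouse 3 or 4 of D0, 28 or 30 of D2 or 31 or 35 of D3. The cause was not tested. Of 347 changes past the adjusted p across alternatives, 347 kept their sign and 310 still passed, while 81 of 1992 uncalled changes had the other sign. No paired analysis was possible because the groups share no mouse numbers. The number of arrays and the dim signal of Col15a1 limit what could be seen.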
